A study of Mus musculus with 23 samples.

Results

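The genes described here are 39 antiviral interferon-stimulated genes, which encode sensors of foreign nucleic acid and proteins that act on viral RNA or on virus particles. They were taken by symbol from a table of 47643 genes, and each symbol was found once. All 39 were followed in 23 RNA-seq libraries of B16F10, a mouse melanoma cell line that arose in C57BL/6 mice and forms pigmented tumors. The series asked how loss of NR2F6, a nuclear receptor that regulates transcription, changed gene expression in tumor cells with and without a host. Libraries came from bulk tumors, from tumor cells sorted out of tumors with magnetic beads, and from cultured cells. Each of these sample types had 2 libraries of wild-type control cells and 2 of NR2F6 KO cells for each of 2 single guide RNAs (sgRNAs), sg492 and sg495. KO cells had received Cy3-labeled sgRNA with Cas9 protein and were sorted for Cy3 24 h later, so that each KO line was a transfected pool, and no source used here describes it as 1 clone. Tumors were grown under the skin of male C57BL/6 mice that were 6 to 8 weeks old at injection, and the day on which tumors for RNA were taken is not given in the sources used here. Sorted cells were obtained by collagenase digestion for 1 h at 30 °C and depletion of stromal cells. A further 5 libraries are labeled as wild-type B16F10 with IgG control (2 libraries) or anti-PD1 (3 libraries), with no sample type. Nothing in the labels says that the libraries of a group came from separate animals or cultures, so p-values measure the spread between these libraries, which may be technical.

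Cells sense interferon through surface receptors whose kinases activate transcription factors. These bind the interferon-stimulated response element (ISRE) or the gamma-activated site (GAS) in promoters. Type I interferon works mainly through the first and type II interferon (IFN-γ) mainly through the second, although many genes answer to both. The products of the antiviral genes work in layers: RIG-I (Ddx58), MDA5 (Ifih1) and LGP2 (Dhx58) detect viral RNA, OAS enzymes make a second messenger that activates RNase L, IFIT proteins bind RNA, ISG15 is attached to other proteins, and tetherin (Bst2) holds budding particles at the cell surface. In tumors these genes are widely used as a readout of interferon in the tumor environment. C57BL/6 mice carry a truncated Mx1 allele, so the Mx1 transcript is a marker of the response and not of a working protein.

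The expression levels below are TPM values, the share of all transcripts that a gene holds, which are scaled for gene length and for the total of each library. Melanocyte markers (6 genes, among them Pmel and Tyr) summed to 14595 to 17580 TPM in the 18 libraries of the 3 sample types and to 1634 to 4907 TPM in the IgG and anti-PD1 libraries. Nr2f6 itself stood at 25.8 and 25.2 TPM in control, 22.3 and 23.3 TPM in sg492 and 17.2 and 15.8 TPM in sg495 bulk tumors. In sorted tumor cells it stood at 20.3 and 17.7 TPM in control, 19.8 and 25.7 TPM in sg492 and 10.6 and 12.2 TPM in sg495, and in cultured cells at 31.9 and 32.9, 26.6 and 31.5 and 18.6 and 22.4 TPM in the same order. Both sg495 libraries lay below both controls in every sample type, whereas the libraries labeled sg492 in sorted tumor cells did not, and an edit that shifts the reading frame need not lower the RNA. Genes of chromosome 8, which carries Nr2f6, had a median log2 fold change with sg495 of -0.25 in bulk tumors, -0.34 in sorted cells and -0.33 in culture, against 0.03, 0.02 and 0.03 with sg492. Mitochondrial genes held 2.56% to 8.02% of the TPM of these 18 libraries and 8.63% to 21.9% of that of the IgG and anti-PD1 libraries.

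Promoter windows from RefSeq (GRCm38.p6, 250 bases before to 50 after a transcript start) were found for 28 of the 39 genes, in 35 windows. No window was found for Tor3a, Parp14, Oas2, Zbp1, Mx2, Mx1, Usp18, Rtp4, Ifi27l2a, Dhx58 and Parp9. The ISRE was searched as GAAANNGAAA and its reverse complement TTTCNNTTTC, and the GAS as TTCNNNGAA, which is its own reverse complement. An ISRE lay in a window of 12 of the 28 genes (Bst2, Ddx58, Eif2ak2, Ifih1, Ifit1, Ifit3, Ifit3b, Isg15, Oas1a, Oas3, Rsad2 and Trim30a) and in 3.44% of all 32851 windows of this length. A GAS lay in a window of 7 genes and in 8.30% of all windows, and 1 GAS, that of Bst2, overlapped an ISRE. The 200 bases before the start are shown for 9 genes on which the results below turn, 5′ to 3′ on the strand of the gene, with ISRE matches in capitals.
Isg15 (chr4:156200819-156201018, minus strand): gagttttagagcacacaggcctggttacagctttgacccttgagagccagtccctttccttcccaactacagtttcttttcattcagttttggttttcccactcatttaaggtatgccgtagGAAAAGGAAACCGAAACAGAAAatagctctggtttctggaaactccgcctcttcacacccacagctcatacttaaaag
Ifit1 (chr19:34640689-34640888, plus strand): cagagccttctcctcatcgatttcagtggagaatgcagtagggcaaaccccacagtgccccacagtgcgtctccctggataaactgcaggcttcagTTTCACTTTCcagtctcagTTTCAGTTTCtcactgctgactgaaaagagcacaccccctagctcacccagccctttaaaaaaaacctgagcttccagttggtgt
Ifit3 (chr19:34583329-34583528, plus strand): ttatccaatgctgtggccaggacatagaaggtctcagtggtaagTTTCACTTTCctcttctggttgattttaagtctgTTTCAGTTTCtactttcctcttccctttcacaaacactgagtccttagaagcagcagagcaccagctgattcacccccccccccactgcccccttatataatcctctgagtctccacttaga
Ifit3b (chr19:34607757-34607956, plus strand): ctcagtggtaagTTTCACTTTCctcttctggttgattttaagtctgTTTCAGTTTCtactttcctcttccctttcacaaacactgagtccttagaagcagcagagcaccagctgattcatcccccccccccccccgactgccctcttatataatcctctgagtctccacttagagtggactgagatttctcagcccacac
Ifit2 (chr19:34550494-34550693, plus strand): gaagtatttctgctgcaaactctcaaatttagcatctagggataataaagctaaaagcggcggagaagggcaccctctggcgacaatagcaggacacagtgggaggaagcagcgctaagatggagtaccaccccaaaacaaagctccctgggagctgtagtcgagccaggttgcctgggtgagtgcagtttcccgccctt
Oas1a (chr5:120907526-120907725, minus strand): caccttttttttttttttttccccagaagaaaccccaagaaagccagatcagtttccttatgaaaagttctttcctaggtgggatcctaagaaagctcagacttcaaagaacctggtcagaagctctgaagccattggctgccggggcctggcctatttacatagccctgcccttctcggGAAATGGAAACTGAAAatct
Rsad2 (chr12:26456453-26456652, minus strand): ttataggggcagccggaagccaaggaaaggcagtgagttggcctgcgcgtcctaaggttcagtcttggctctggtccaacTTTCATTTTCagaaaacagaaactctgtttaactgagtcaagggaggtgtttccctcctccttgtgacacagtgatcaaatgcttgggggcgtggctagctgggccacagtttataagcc
Bst2 (chr8:71537473-71537672, minus strand): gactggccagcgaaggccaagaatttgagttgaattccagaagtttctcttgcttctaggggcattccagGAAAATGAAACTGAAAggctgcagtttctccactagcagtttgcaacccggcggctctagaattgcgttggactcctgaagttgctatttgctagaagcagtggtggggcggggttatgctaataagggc
Parp12 (chr6:39118350-39118549, minus strand): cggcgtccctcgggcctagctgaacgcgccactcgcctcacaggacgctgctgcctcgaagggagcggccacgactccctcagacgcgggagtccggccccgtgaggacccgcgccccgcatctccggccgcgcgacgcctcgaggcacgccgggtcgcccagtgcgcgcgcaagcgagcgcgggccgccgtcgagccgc
Isg15 held 3 overlapping ISRE matches, whose nearest bases lay 57, 63 and 69 bases before the start. Ifit1 held 2 matches, at 76 and 95 bases, Oas1a 2 at 5 and 11 bases, and Bst2 2 at 115 and 121 bases. Ifit3 and its neighbor Ifit3b shared the same pair of matches in the same spacing, at 113 and 147 bases in Ifit3 and at 145 and 179 bases in Ifit3b. The windows of Ifit2 and Parp12 held none. A match in letters is a description of the window and not evidence that a factor was bound there.

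The 39 genes started from very different levels in cultured control cells. In both control libraries, 16 of them were below 1 TPM, and Oas2, Oas3, Ifi44 and Ifi27l2a were listed at 0. A further 6 stood at 9 TPM or more in both, namely Ifit2, Eif2ak2, Adar, Herc6, Bst2 and Tor3a. Ifit2, a partner of IFIT1, stood at 30.7 and 28.3 TPM, Eif2ak2 (PKR, a kinase that stops translation on binding double-stranded RNA) at 21.3 and 20.7 TPM, and Adar (an enzyme that edits adenosine in double-stranded RNA) at 23.2 and 22.8 TPM. Herc6, the mouse ligase that attaches ISG15, stood at 20.5 and 22.5 TPM, Bst2 at 32.6 and 37.3 TPM and Tor3a, a torsin ATPase, at 10.7 and 9.63 TPM. These 6 genes thus stood above the other 33, of which Parp12 was the highest at 7.45 and 7.81 TPM.

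**Figure D1:**
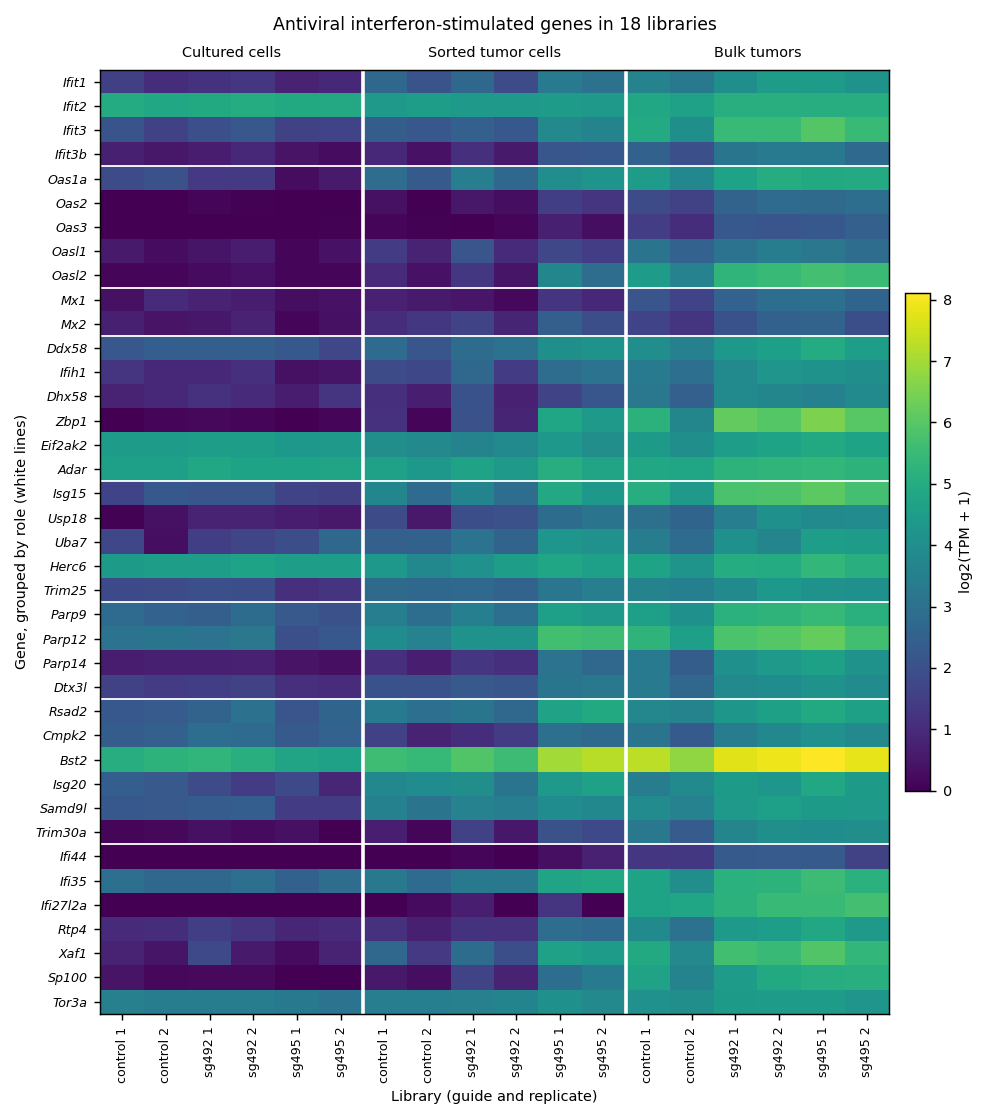
Level of the 39 antiviral interferon-stimulated genes, as log2(TPM + 1) in color, in the 18 libraries of cultured cells, sorted tumor cells and bulk tumors (columns, 2 libraries per guide and sample type), with genes grouped by role between white lines. Bulk tumors are brightest, sg495 sorted tumor cells are brighter than the other sorted libraries, and Ifit2, Eif2ak2, Adar and Herc6 are bright in cultured cells too.

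The control libraries set unedited tumor cells taken from a host beside unedited cells in culture, which were not described as digested or depleted of other cells. Between sorted tumor cells and cultured cells, 10 of the 38 genes that could be tested in the fit of all 18 libraries were higher in sorted cells and 1 was lower, where "called" throughout means a p under 0.05 after Benjamini-Hochberg adjustment together with a change of 1.5-fold or more. Of all 13152 genes tested, 12.4% were called higher and 7.79% lower. Among the 38, 16 had a mean below 1 TPM over the cultured libraries and entered this fit through the tumor libraries. Usp18 and Xaf1, both called higher, were among these 16. The ISG15 system led the count, with 4 of its 5 genes called. Isg15, the ubiquitin-like modifier, went from 2.11 and 3.68 TPM in culture to 12.2 and 6.09 TPM in sorted cells (log2 fold change 1.34 ± 0.34, with the standard error after ±, as in the rest of the text, adjusted p = 0.0066). Its E1 enzyme Uba7 went from 2.33 and 0.24 to 4.58 and 4.74 TPM (1.48 ± 0.38, adjusted p = 0.0081), and Trim25, a ligase that acts on RIG-I, from 2.57 and 2.64 to 6.06 and 5.71 TPM (0.93 ± 0.15, adjusted p = 3.6e-04). Usp18, which removes ISG15, went from 0.040 and 0.30 TPM in culture to 2.62 and 0.47 TPM in sorted cells (0.99 ± 0.33, adjusted p = 0.028). For each of these 4, both sorted libraries lay above both cultured libraries, as they did for 36.4% of all genes.

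Of the direct effectors, Samd9l, a restriction factor, rose from 3.71 and 3.81 to 10.9 and 7.67 TPM (1.09 ± 0.15, adjusted p = 9.7e-05). Isg20, an exonuclease, rose from 4.36 and 3.76 to 12.8 and 14.3 TPM (1.52 ± 0.31, adjusted p = 0.0019), and Rsad2 (viperin) from 3.7 and 3.98 to 9.06 and 6.8 TPM (0.87 ± 0.22, adjusted p = 0.0061). Cmpk2, a mitochondrial kinase of nucleotides that is the head-to-head neighbor of Rsad2 on chromosome 12, was the 1 gene that fell, from 4.23 and 4.63 to 2 and 0.77 TPM (-1.24 ± 0.28, adjusted p = 0.0036). The 2 neighbors therefore went opposite ways between culture and tumor. Ifit1 (1.89 and 1.07 to 5.7 and 3.24 TPM), Parp12 (7.45 and 7.81 to 14.3 and 11.1 TPM) and Xaf1 (0.76 and 0.38 to 5.53 and 1.53 TPM) were also called higher. The median of the 38 genes was 0.40, against 0 over all genes. In a fit of the 4 control libraries alone 6 genes were called in place of 11, and without cultured control replicate 2 or sorted control replicate 1 the counts were 6 and 7.

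Bulk tumors held far more of these transcripts than the tumor cells sorted from them. Of 38 genes tested, 28 were higher in control bulk tumors and none lower, with a median log2 fold change of 1.33, and 8.27% of all genes were called higher. Of the 28, 12 had a sorted control mean below 1 TPM and entered the fit through groups in which they were higher, and 16 of the 26 other genes tested were called. Ifi27l2a stood at 0 and 0.19 TPM in sorted and 25.1 and 26.4 TPM in bulk controls (log2 fold change 4.62 ± 0.32, adjusted p = 3.4e-07). Zbp1, a sensor of Z-form nucleic acid, stood at 1.21 and 0.11 against 36.2 and 12.1 TPM (3.82 ± 0.47, adjusted p = 6.0e-05), and Sp100, a protein of PML nuclear bodies, at 0.46 and 0.22 against 24.8 and 11.29 TPM (3.74 ± 0.33, adjusted p = 4.1e-06). All 5 OAS genes were called: Oasl2 stood at 0.99 and 0.31 against 20.8 and 11.2 TPM, Oas2 at 0.28 and 0 against 2.63 and 1.94 TPM and Oas3 at 0.070 and 0.030 against 1.77 and 1.09 TPM. Rtp4 (1.25 and 0.65 against 13.7 and 7.15 TPM), Trim30a (0.59 and 0.090 against 8.53 and 4.15 TPM) and Parp14 (1.13 and 0.59 against 9.4 and 4.26 TPM) followed. Isg20 was the only gene tested with a value below 0 (-0.22 ± 0.31).

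Leukocyte markers moved with this comparison. The 14 markers summed to 384 to 512 TPM in control bulk tumors and to 6.44 to 8.10 TPM in sorted control cells, where 8 of the 14 were listed at 0 in each library, while Ptprc (CD45) stood at 9.29 and 5.74 TPM in bulk and 0 and 0.030 TPM in sorted controls. Fibroblast markers summed to 334 to 397 TPM in bulk and 1.19 to 3.04 TPM in sorted controls. The part of other cell types in the bulk levels was not tested, and in bulk tissue more cells of a type and more RNA per cell cannot be told apart. A fit of the 4 control libraries alone called 18 genes in place of 28.

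With sg495, antiviral genes of several roles rose in tumor cells sorted from tumors, led in p by Parp12 and Bst2. Of the 34 genes that passed a mean of 1 TPM over the 6 sorted libraries, 12 were called higher and none lower, whereas 0.605% of all 12899 genes were called higher. Both sg495 libraries lay above both controls for 33 of the 34, against 17.9% of all genes, and the median log2 fold change was 1.45, against -0.04 over all genes. Of the 34, 8 had a control mean below 1 TPM and passed the filter only through the other groups (Ifit3b, Oasl2, Dhx58, Zbp1, Parp14, Trim30a, Rtp4 and Sp100), so the counts above lean toward genes that differ. Zbp1, Parp14, Rtp4 and Sp100, all among the 12 called, belong to these 8. Without the filter, both sg495 libraries lay above both controls for 37 of the 39, not for Ifit2 and Ifi27l2a. The 5 genes below the filter (Oas2, Oas3, Mx1, Ifi44 and Ifi27l2a) are given by their values below.

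**Figure D2:**
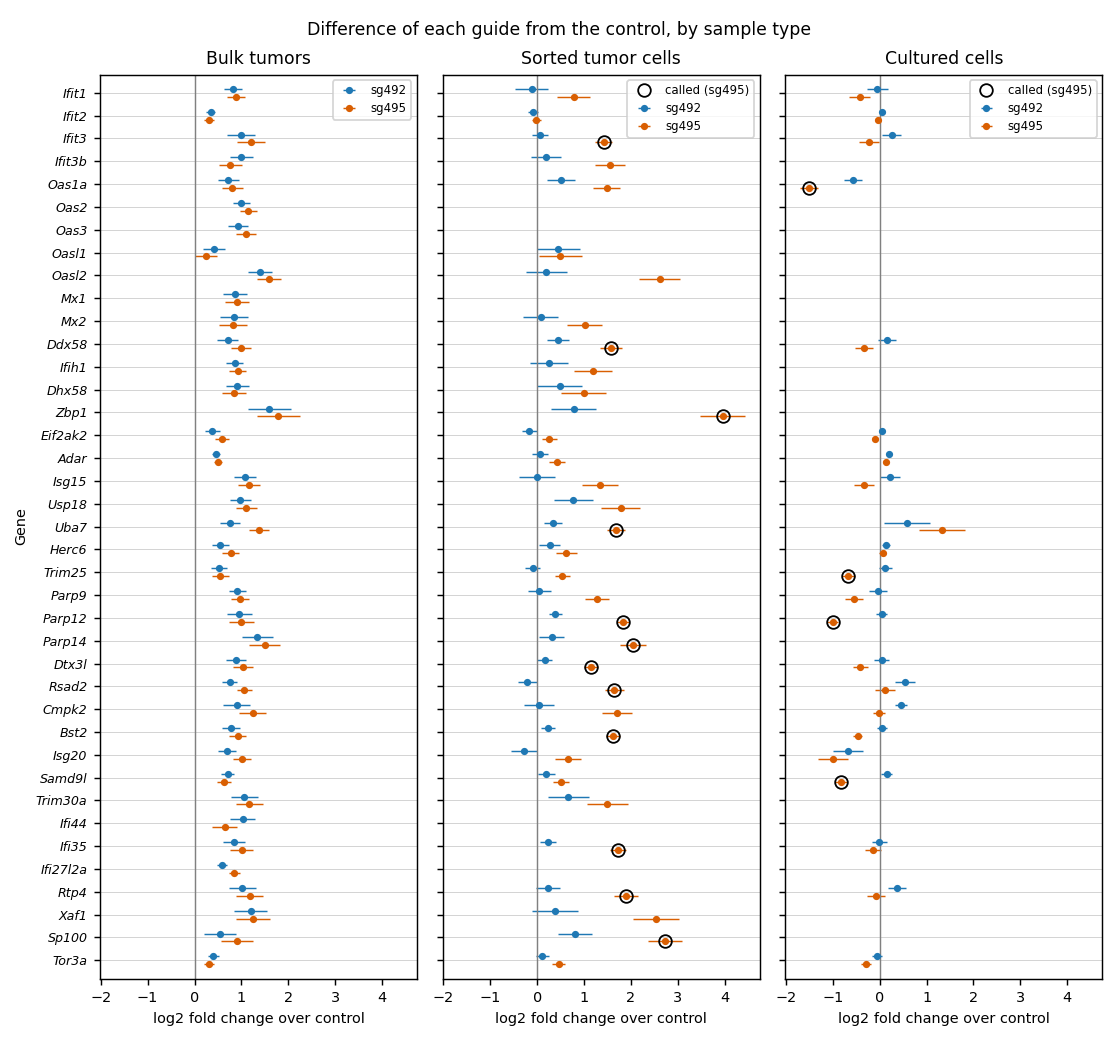
Log2 fold change over control on the log2(TPM + 1) scale, with its standard error as the bar, of each gene with sg492 (blue) and sg495 (orange), with 1 panel per sample type; a black ring marks a called gene, and a gene with no point did not pass the expression filter. Both guides lie above 0 together in bulk tumors, only sg495 lies far above 0 in sorted tumor cells, and rings in cultured cells lie below 0.

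Among sensors and RNA enzymes, the largest fold was that of Zbp1, which passed the filter only through the other groups. It stood at 1.21 and 0.11 TPM in control and 27.2 and 20.1 TPM in sg495 sorted cells, a log2 fold change of 3.96 ± 0.49 (adjusted p = 0.03). The controls differed widely between themselves, but both lay far below the sg495 libraries. Ddx58 (RIG-I) rose from 6.21 and 3.51 to 15.6 and 16.6 TPM (1.58 ± 0.23, adjusted p = 0.047). Ifih1 (MDA5) stood at 2.62 and 2.4 against 6.5 and 7.51 TPM (1.19 ± 0.41, adjusted p = 0.25) and Dhx58 (LGP2) at 1.2 and 0.62 against 2.15 and 3.47 TPM (0.99 ± 0.48, adjusted p = 0.39), both without overlap and neither called. Adar stood at 23.7 and 19.1 against 32.1 and 25.9 TPM and Eif2ak2 at 15.1 and 13.2 against 19.1 and 15.2 TPM, with log2 fold changes of 0.42 ± 0.17 and 0.26 ± 0.16. The enzymes that were already abundant in culture thus differed least in this class.

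The class that holds Dtx3l and the PARP genes, ADP-ribosyltransferases that modify proteins after infection, gave the most calls for its size, 3 of 4. Parp12 rose from 14.3 and 11.1 to 48.97 and 46.5 TPM, 3.58-fold on the log2(TPM + 1) scale (1.84 ± 0.13, adjusted p = 0.0082). Its groups were tight and far apart. Parp14, which passed the filter only through the other groups, rose from 1.13 and 0.59 to 7.58 and 5.71 TPM (2.04 ± 0.27, adjusted p = 0.037). Dtx3l, a ubiquitin ligase, rose from 3.16 and 3.12 to 7.94 and 8.43 TPM (1.15 ± 0.16, adjusted p = 0.039). Its partner Parp9, encoded beside it on chromosome 16, stood at 10 and 6.61 against 22.9 and 19.6 TPM (1.28 ± 0.25, adjusted p = 0.089) and was not called.

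Of the direct effectors, Bst2 and Rsad2 were called. Bst2 rose from 47.01 and 42.1 to 126 and 152 TPM, 3.06-fold (1.61 ± 0.15, adjusted p = 0.013). Bst2 lies on chromosome 8 (71534255 to 71537456, GRCm38), the chromosome of Nr2f6, whose genes had the negative median with sg495 given above. Rsad2 rose from 9.06 and 6.8 to 24.3 and 29.4 TPM (1.65 ± 0.21, adjusted p = 0.032). Its neighbor Cmpk2 stood at 2 and 0.77 against 7.02 and 5.99 TPM (1.7 ± 0.32, adjusted p = 0.082), and Trim30a at 0.59 and 0.090 against 3.01 and 2.46 TPM (1.5 ± 0.44, adjusted p = 0.20). Samd9l (10.9 and 7.67 against 14.3 and 12.7 TPM) and Isg20 (12.8 and 14.3 against 19.96 and 23.7 TPM) differed by less, with log2 fold changes of 0.51 ± 0.18 and 0.65 ± 0.28.

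In the ISG15 system only Uba7 was called, from 4.58 and 4.74 to 18.04 and 16.1 TPM (1.67 ± 0.19, adjusted p = 0.025). Isg15 itself stood at 12.2 and 6.09 against 28.9 and 19.1 TPM (1.34 ± 0.39, adjusted p = 0.20), with controls that differed widely between themselves. Usp18 stood at 2.62 and 0.47 against 6.24 and 7.68 TPM (1.78 ± 0.42, adjusted p = 0.14). Herc6 (19.02 and 12.9 against 26.6 and 22.9 TPM) and Trim25 (6.06 and 5.71 against 8.13 and 9.97 TPM) lay lower, at 0.62 ± 0.22 and 0.54 ± 0.16.

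The IFIT genes lie side by side on chromosome 19, from Ifit2 (34550694 to 34576419) through Ifit3 and Ifit3b to Ifit1 (34640871 to 34650009), yet they did not move alike. Ifit3 rose from 4.28 and 3.59 to 13.2 and 11.2 TPM (1.42 ± 0.17, adjusted p = 0.03). Ifit3b, a near-identical copy whose reads RSEM had to divide with those of Ifit3, stood at 0.86 and 0.33 against 3.55 and 3.67 TPM (1.55 ± 0.33, adjusted p = 0.11), so the split of reads between them is uncertain. Ifit1 stood at 5.7 and 3.24 against 9.19 and 7.18 TPM (0.78 ± 0.35, adjusted p = 0.36). Ifit2 stood at 20 and 21.9 against 21.4 and 20.1 TPM, the only gene of the 34 whose groups overlapped and whose value was below 0 (-0.02 ± 0.10, 95% interval -0.26 to 0.23). It was the IFIT gene that was abundant in culture, and its promoter window shown above holds no ISRE match, nor does that of Parp12.

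No OAS or MX gene was called in sorted cells. Oasl2 stood at 0.99 and 0.31 against 12.1 and 6.47 TPM (2.61 ± 0.43, adjusted p = 0.06), Oas1a at 6.45 and 3.93 against 14.8 and 17.2 TPM (1.48 ± 0.30, adjusted p = 0.091), and Oasl1 at 1.74 and 0.70 against 2.3 and 1.8 TPM (0.49 ± 0.46). Mx2 stood at 1.07 and 1.47 against 4.43 and 2.83 TPM (1.01 ± 0.37, adjusted p = 0.27). Below the filter, Oas2 stood at 0.28 and 0 against 1.85 and 1.34 TPM, Oas3 at 0.070 and 0.030 against 0.63 and 0.24 TPM, Mx1 at 0.66 and 0.50 against 1.32 and 0.93 TPM, Ifi44 at 0 and 0 against 0.27 and 0.69 TPM and Ifi27l2a at 0 and 0.19 against 1.36 and 0 TPM. Of these 5, Ifi27l2a alone overlapped between the groups.

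Of the remaining induced genes 3 were called, among them Rtp4 and Sp100, which passed the filter only through the other groups. Ifi35 rose from 8.78 and 6.11 to 25.7 and 27.9 TPM (1.73 ± 0.17, adjusted p = 0.016), Rtp4 from 1.25 and 0.65 to 6.54 and 5.9 TPM (1.9 ± 0.25, adjusted p = 0.037), and Sp100 from 0.46 and 0.22 to 6.62 and 9.2 TPM (2.72 ± 0.37, adjusted p = 0.039). Xaf1, a partner of the caspase inhibitor XIAP, stood at 5.53 and 1.53 against 23.7 and 21.5 TPM (2.54 ± 0.49, adjusted p = 0.085), again with controls that lay far apart. Tor3a stood at 10 and 10.4 against 15.9 and 13.1 TPM (0.46 ± 0.14). Leukocyte markers summed to 10.2 to 15.1 TPM in the sg495 sorted libraries, against 6.44 to 8.10 TPM in the controls. In each sg495 library 7 of the 14 were listed at 0, with Itgax, Nkg7 and Cd3e at 0 in both and Ptprc at 0.15 and 0.020 TPM. Of the 2 that could be tested, neither was called. Cd68 stood at 5.06 and 3.62 TPM in control and 6.76 and 12.1 TPM with sg495 (0.93, unadjusted p below 0.05 by limma). Fcer1g stood at 2.43 and 2.12 against 2.29 and 1.83 TPM (-0.10). The part of leukocyte markers in the result was not tested. Mitochondrial genes held 8.02% of the TPM in sg495 replicate 1 and 3.45% to 4.73% in the 5 other sorted libraries, and their part was not tested either. The number of called genes rested on how the spread was estimated: it was 23 in a fit of all 18 libraries (1.90% of all genes called higher), 3 in a fit of control and sg495 alone and 0 with no expression filter. It was 2 and 1 without sorted control replicate 1 and 2, and 0 without either sg495 library.

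In bulk tumors with sg495 every antiviral gene lay above control, and none was called. All 39 passed the filter, all 39 had a log2 fold change above 0, 38 had both sg495 libraries above both controls (31.6% of all genes did), and the median was 0.97 against 0.06 over all genes. In this fit 0.0293% of all 13639 genes were called in either direction, and limma gave 38 of the 39 an unadjusted p below 0.05, against 11.1% of all genes that were higher at that level. The lowest adjusted p of the 39 was 0.0865. Zbp1 stood at 36.2 and 12.1 TPM in control and 89.8 and 63.01 TPM in sg495 tumors (1.79 ± 0.46, adjusted p = 0.14). Oasl2 stood at 20.8 and 11.2 against 50.8 and 45.3 TPM (1.59 ± 0.26, adjusted p = 0.088) and Parp14 at 9.4 and 4.26 against 23.5 and 16.8 TPM (1.5 ± 0.33). In each of these genes control replicate 2 was the lowest library, and it was below replicate 1 for 36 of the 39 genes (not for Isg20, Ifi44 and Ifi27l2a). The share of all genes with this order was not counted.

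The other genes named here, both low and abundant, differed by smaller factors. Isg15 stood at 32.5 and 19.9 against 66.7 and 50.7 TPM (1.16 ± 0.23), Ifit3 at 30.3 and 15.3 against 59.9 and 43.8 TPM (1.21 ± 0.30), and Bst2 at 158 and 109 against 276 and 225 TPM (0.92 ± 0.19). Parp12 stood at 38.1 and 23.1 against 72.8 and 49.9 TPM (1.0 ± 0.26), Xaf1 at 29.5 and 13.2 against 59.1 and 40.2 TPM (1.25 ± 0.36) and Rsad2 at 12.6 and 11.4 against 29.1 and 23.4 TPM (1.06 ± 0.16, adjusted p = 0.086). Uba7 stood at 9.7 and 6.18 against 21.98 and 21.3 TPM (1.37 ± 0.22, adjusted p = 0.086) and Oas2 at 2.63 and 1.94 against 5.96 and 6.56 TPM (1.15 ± 0.18, adjusted p = 0.086). Ifi27l2a, nearly absent from sorted cells, stood at 25.1 and 26.4 against 44.5 and 50.2 TPM (0.85 ± 0.11, adjusted p = 0.086), with a spread small beside the difference. The smallest differences were those of Oasl1 (7.62 and 4.82 against 8.37 and 6.54 TPM, 0.25 ± 0.23), whose groups overlapped, and of Ifit2 (28.1 and 23.9 against 32.3 and 32.5 TPM, 0.31 ± 0.10).

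Leukocyte markers moved with the antiviral genes in these tumors. They summed to 761 to 845 TPM with sg495 and to 384 to 512 TPM in control, all 13 that could be tested lay above 0 with a median log2 fold change of 0.97, none was called, and limma gave 11 an unadjusted p below 0.05. Fibroblast markers summed to 543 to 948 TPM with sg495, with a median of 0.93 over 6 genes. The part of these cells in the bulk result was not tested. In the fit of all 18 libraries, which shares 1 estimate of spread among sample types, 18 of 38 antiviral genes were called higher, against 2.74% of all genes, and without control replicate 1 the fit of bulk tumors called 14, against 1.22% of all genes called higher. In that fit the lone control library is assumed to vary like the other groups.

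**Figure D3:**
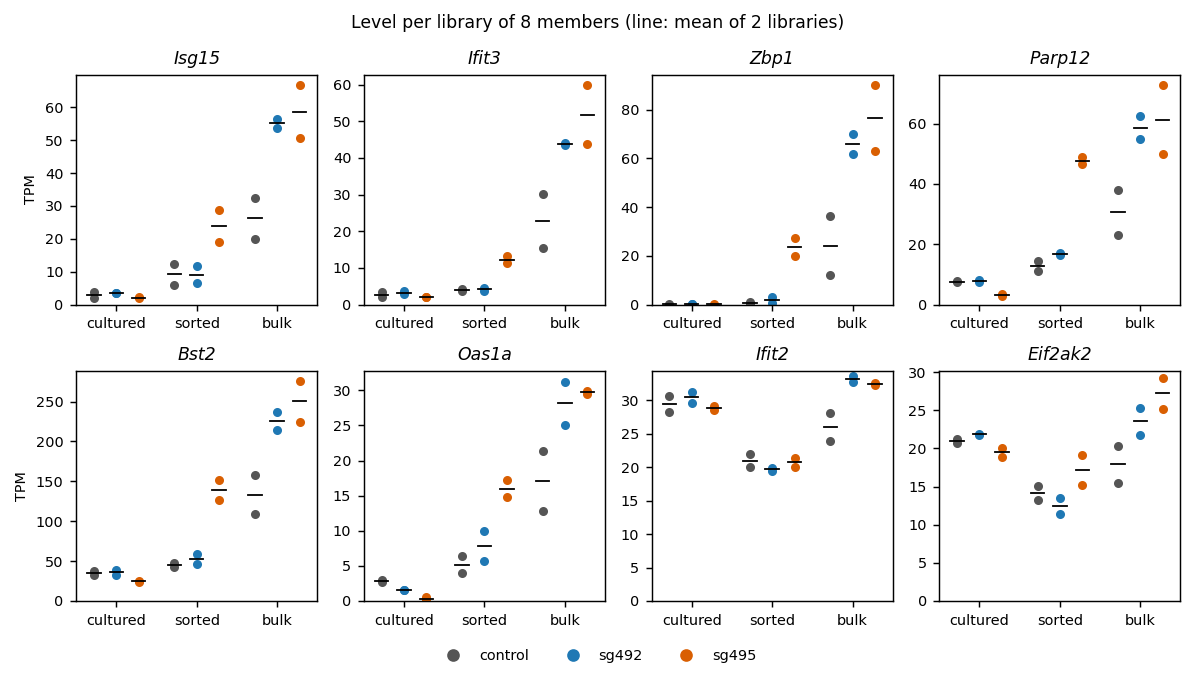
TPM of 8 antiviral genes in each library (points) with the mean of the 2 libraries of a group (line), for control (gray), sg492 (blue) and sg495 (orange) in cultured cells, sorted tumor cells and bulk tumors. Zbp1 and Parp12 stand apart with sg495 in sorted cells, both guides stand above control in bulk tumors, and Ifit2 and Eif2ak2 have similar levels in culture and in tumors.

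In cultured cells the antiviral genes called with sg495 were lower than control, and they were an OAS enzyme, a PARP, a restriction factor and a ligase that acts on RIG-I. Of 22 genes that passed the filter, 4 were called lower and none higher, 18 lay below 0, and the median log2 fold change was -0.31, against -0.0010 over all genes. Of all 12007 genes tested, 2.03% were called lower. Both sg495 libraries lay below both controls for 11 of the 22, and for 28.9% of all genes. Oas1a fell from 2.66 and 3.02 to 0.20 and 0.50 TPM (-1.52 ± 0.19, adjusted p = 0.0077), and Parp12 from 7.45 and 7.81 to 2.97 and 3.65 TPM (-1.01 ± 0.12, adjusted p = 0.0067). Samd9l fell from 3.71 and 3.81 to 1.67 and 1.68 TPM (-0.83 ± 0.12, adjusted p = 0.013) and Trim25 from 2.57 and 2.64 to 1.19 and 1.34 TPM (-0.67 ± 0.14, adjusted p = 0.035). All 4 were low genes with tight replicates and no overlap.

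Bst2 stood at 32.6 and 37.3 in control and 25.5 and 24.1 TPM in sg495 cultured cells (-0.48 ± 0.11, adjusted p = 0.039), below the fold threshold and beside a chromosome 8 median of -0.33. Isg20 stood at 4.36 and 3.76 against 2.46 and 0.84 TPM (-1.0 ± 0.32, adjusted p = 0.10) and Parp9 at 6.12 and 4.85 against 3.8 and 3.02 TPM (-0.56 ± 0.19). The abundant genes differed little: Ifit2 had -0.03 ± 0.06, Eif2ak2 -0.10 ± 0.06, Herc6 0.06 ± 0.08 and Adar 0.13 ± 0.07. Uba7 was the exception in direction, at 2.33 and 0.24 in control and 2.87 and 5.75 TPM with sg495 (1.33 ± 0.49, adjusted p = 0.14), with controls that lay far apart. Leukocyte markers summed to 6.60 to 7.13 TPM with sg495 and 3.79 to 3.84 TPM in control. Ptprc, Itgam and Cd3e were at 0 in all 6 cultured libraries. Of the 3 markers that could be tested, all lay above 0 and 1 was called higher, as were 88 of all 12007 genes. Lyz2 stood at 0.79 and 0.92 TPM in control and 3.07 and 2.23 TPM with sg495. Cd68 stood at 1.76 and 1.28 against 3.05 and 2.42 TPM. The part of these markers in the result was not tested. The 4 calls became 1, 0, 1 and 2 without cultured control replicate 1, control replicate 2, sg495 replicate 1 and sg495 replicate 2.

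The sg495 effect was therefore compared between sample types by interaction terms in the fit of all 18 libraries. Of the 22 genes tested in both cultured and sorted cells, 17 lay above 0 in sorted and below 0 in cultured cells, 4 above 0 in both, and Ifit2 below 0 in both. The sg495 effect was larger in sorted than in cultured cells for 21 of 38 genes called, all 38 lay above 0, and the median difference was 1.56; 1.86% of all genes were called in that direction. Of the 21, 14 were among the 22 genes that passed the filter in culture. The other 7 (Ifit3b, Oas2, Oasl2, Ifih1, Zbp1, Parp14 and Sp100) were below it there and entered this fit through the tumor libraries, so that their difference mostly repeats the sorted effect. The difference of log2 fold changes was 2.85 ± 0.30 for Parp12 (adjusted p = 4.7e-04), 2.09 ± 0.25 for Bst2 (adjusted p = 0.0011) and 3.0 ± 0.38 for Oas1a (adjusted p = 0.0018). For Zbp1, which was at or near 0 TPM in every cultured library, it was 3.96 ± 0.66 (adjusted p = 0.0075). At the other end, Ifit2 had the smallest difference of the 38, of 0.01. The count was 13 without cultured sg495 replicate 2 and 12 without sorted control replicate 2.

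Between bulk tumors and cultured cells the effect was larger in bulk for 9 of 38 genes called, with all 38 above 0 and a median difference of 1.23, and 1.60% of all genes were called. They were Samd9l (1.46 ± 0.21, adjusted p = 0.008), Parp12 (2.0 ± 0.30, adjusted p = 0.008), Oas1a (2.32 ± 0.38, adjusted p = 0.013), Dtx3l, Trim25, Bst2, Isg20, Parp14 and Parp9, of which Parp14 alone was below the filter in culture. This count moved between 2 and 19 when single libraries were left out, to 19 without bulk control replicate 1 and to 2 to 4 without bulk control replicate 2, bulk sg495 replicate 1 or any of the 4 cultured control and sg495 libraries. Between bulk tumors and sorted cells no gene was called by limma, with 2 genes higher and 6 lower at an unadjusted p below 0.05, and 0.122% of all genes were called. The median difference was -0.25, and 27 of 38 genes had the larger log2 fold change in sorted cells. That median was -0.01 without bulk control replicate 1 and -0.54 without bulk control replicate 2. The widest gap was that of Zbp1 (-2.17 ± 0.66, adjusted p = 0.14), followed by Sp100 (-1.81 ± 0.47, adjusted p = 0.10).

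The second guide, sg492, gave higher values than control in bulk tumors and small differences in sorted and cultured cells. In bulk tumors all 39 genes lay above 0, with a median log2 fold change of 0.86, and 37 had both sg492 libraries above both controls (31.1% of all genes did). No gene was called among the 39 or in the whole table (0% of 13639), and limma gave 37 of the 39 an unadjusted p below 0.05, against 6.67% of all genes higher at that level. Isg15 stood at 53.6 and 56.6 TPM with sg492 (1.08 ± 0.23, adjusted p = 0.48), Zbp1 at 70.1 and 61.95 TPM (1.6 ± 0.46) and Oasl2 at 39.01 and 44.7 TPM (1.39 ± 0.26), to be read against the same controls as above. Ifit3 stood at 43.5 and 44.1 TPM, Parp12 at 54.9 and 62.5 TPM and Bst2 at 214 and 238 TPM with sg492. The sg492 tumors also carried more leukocyte marker RNA than control, 577 to 680 TPM in sum, a part that was not tested. Without control replicate 1, 2 genes were called.

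In sorted cells sg492 gave no call among 34 genes by limma, 1 (Parp12) with an unadjusted p below 0.05, and 0.0388% of all genes were called. A total of 28 of the 34 lay above 0 with a median of 0.21, which was 0.43 and 0.0039 without control replicate 1 and 2 and 0.0082 and 0.37 without sg492 replicate 1 and 2, and 8 had both sg492 libraries above both controls, against 20.4% of all genes. Parp12 stood at 14.3 and 11.1 TPM in control and 17.1 and 16.6 TPM with sg492 (0.39 ± 0.13, adjusted p = 0.65), Bst2 at 47.01 and 42.1 against 59.02 and 46.7 TPM (0.23 ± 0.15, 95% interval -0.12 to 0.59) and Zbp1 at 1.21 and 0.11 against 3.04 and 0.79 TPM (0.78 ± 0.49, 95% interval -0.40 to 1.96). Rsad2 stood at 9.06 and 6.8 against 7.87 and 5.62 TPM (-0.21 ± 0.21). Replicate 1 of sg492 was above replicate 2 for 31 of the 39 genes, and the share of all genes with this order was not counted. For Oas1a (9.99 and 5.72 TPM) and Isg15 (11.6 and 6.47 TPM) the sg492 libraries spread as widely as the controls. In cultured cells sg492 gave no call among 22 genes by limma, with 3 higher and 1 lower at an unadjusted p below 0.05 and a median of 0.09, and 0.05% of all genes were called. Oas1a stood at 1.53 and 1.61 TPM with sg492, between its control and sg495 levels (-0.58 ± 0.19, adjusted p = 0.40).

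Set directly against each other, the guides differed in sorted and cultured cells. In sorted cells 5 of 34 genes were higher with sg495 than with sg492, all 34 lay above 0, the median was 1.08, and 0.395% of all genes were called higher. They were Parp12 (1.45 ± 0.13, adjusted p = 0.015), Bst2 (1.38 ± 0.15, adjusted p = 0.022), Rsad2 (7.87 and 5.62 against 24.3 and 29.4 TPM, 1.86 ± 0.21, adjusted p = 0.027), Ifi35 (8.79 and 8.66 against 25.7 and 27.9 TPM, 1.51 ± 0.17, adjusted p = 0.028) and Ifit3 (4.6 and 3.75 against 13.2 and 11.2 TPM, 1.35 ± 0.17, adjusted p = 0.043). No gene was called without any one of the 4 sorted sg492 and sg495 libraries, and 20 were called in the fit of all 18 libraries. In cultured cells Parp12, Samd9l, Trim25 and Oas1a were lower with sg495 than with sg492, 2.03% of all genes were called lower, and 1, 2, 1 and 1 of the 4 calls were made without sg492 replicate 1, sg492 replicate 2, sg495 replicate 1 and sg495 replicate 2. In bulk tumors no gene was called (0% of all genes), limma gave Uba7 alone an unadjusted p below 0.05 (15.8 and 12 against 21.98 and 21.3 TPM, 0.62 ± 0.22, adjusted p = 0.42), and the median of the 39 was 0.13, which was -0.0065 without sg495 replicate 1 and 0.27 without sg495 replicate 2, and 0.027 and 0.22 without sg492 replicate 1 and 2. The 95% interval of the difference between guides in bulk tumors was -0.49 to 0.64 for Isg15 and -0.92 to 1.3 for Zbp1. Differences between the guides within these limits are not excluded.

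Genes upstream of the antiviral response were read from a list of the pathway. Of 10 interferon ligands, none reached 1 TPM on average in any of the 3 sample types. Ifnb1 was listed between 0 and 0.57 TPM in the 18 libraries, the 8 other type I and type III ligands between 0 and 0.29 TPM, and Ifng stood at 0.34 and 0.18 TPM in control, 1.14 and 0.70 TPM in sg492 and 1.11 and 0.93 TPM in sg495 bulk tumors. In sorted cells Ifng was listed at 0.060 and 0.070 TPM in control and at 0 in all sg492 and sg495 libraries, and in cultured cells at 0 throughout. Of 8 tested receptors and kinases in sorted cells, none was called with sg495 (median log2 fold change -0.11, 1 of 8 lower at an unadjusted p below 0.05 by limma), and Ifnar1 stood at 30.1 and 28.03 TPM in control and 26.1 and 27.9 TPM in sg495. Ligand RNA was thus near 0 in sorted cells, while receptor RNA was present in control and sg495 cells.

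Irf1 and Irf9, transcription factors of the pathway, rose with sg495 in sorted cells. Irf1 rose from 6.4 and 2.91 to 73.3 and 53.7 TPM (3.57 ± 0.36, adjusted p = 0.017) and Irf9 from 5.61 and 3.97 to 18.6 and 13.4 TPM (1.55 ± 0.21, adjusted p = 0.039). Stat2 stood at 3.94 and 3.21 against 8.71 and 6.88 TPM (0.94 ± 0.19, adjusted p = 0.097), and Irf7, the factor most tied to type I interferon, at 1.58 and 2.06 against 3.45 and 5.5 TPM (0.94 ± 0.37, adjusted p = 0.30). In bulk tumors Irf1 stood at 42.2 and 24.6 TPM in control and 111 and 80.5 TPM with sg495 (1.52 ± 0.26, adjusted p = 0.097), without a call. Among 6 adaptors and inhibitors none was called with sg495 in the 3 sample types, and limma gave an unadjusted p below 0.05 to 1 in bulk tumors, 2 in sorted cells and 0 in cultured cells, all higher.

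Genes typical of IFN-γ, such as the guanylate-binding proteins and MHC class II, were read beside the antiviral genes. In sg495 sorted cells 17 of 19 tested IFN-γ typical genes were called higher with a median log2 fold change of 4.47, against 12 of 34 and 1.45 for the antiviral genes; 0.605% of all genes were called higher, and the difference between the lists was not tested. Of the 19, 6 had a control mean below 1 TPM and passed the filter through other groups, and 12 of the other 13 were called. Gbp2 stood at 9.29 and 1.26 TPM in control and 152 and 109 TPM in sg495 sorted cells (4.75 ± 0.65, adjusted p = 0.039), and the MHC class II gene H2-Aa at 0.98 and 0.10 against 53.6 and 53.8 TPM (5.21 ± 0.29, adjusted p = 0.0045). In sg495 bulk tumors none of 21 was called, all 21 lay above 0 and had an unadjusted p below 0.05 by limma, and the median was 1.56. In cultured cells 2 of the 22 passed the filter and none was called. Cxcl10, 1 of the 2, stood at 22.9 and 22.6 TPM in control and 34.96 and 33.8 TPM with sg495. Its log2 fold change of 0.576 had an adjusted p of 0.0036 by limma but lay below the fold threshold.

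**Figure D4:**
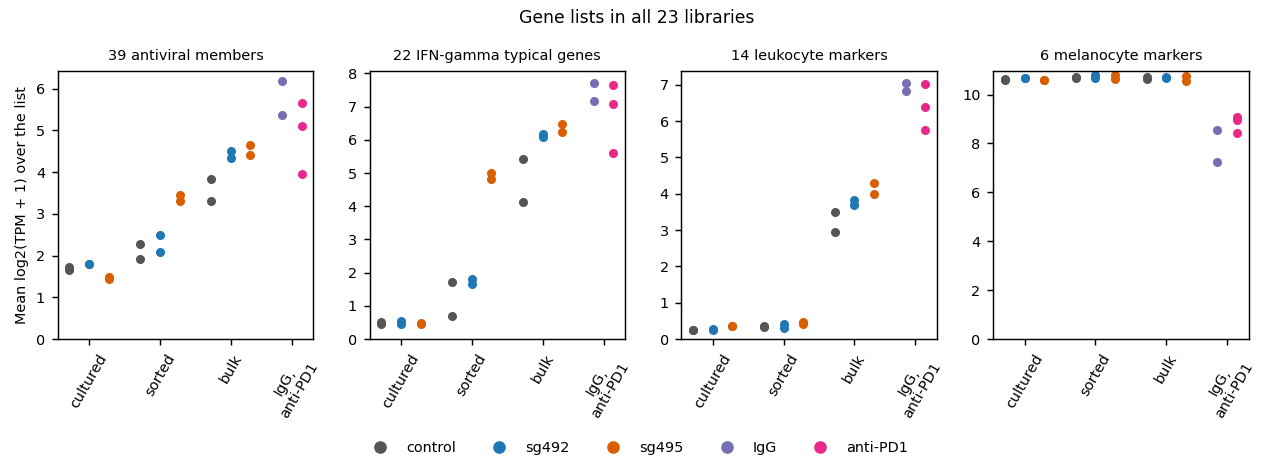
Mean log2(TPM + 1) over each of 4 gene lists in every library (points), for cultured cells, sorted tumor cells and bulk tumors with control (gray), sg492 (blue) and sg495 (orange), and for the IgG (violet) and anti-PD1 (pink) libraries. In sorted cells the antiviral and IFN-γ typical genes are higher with sg495 while leukocyte markers stay below 1, and melanocyte markers are lower in the IgG and anti-PD1 libraries.

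Antiviral levels summed to 2334 to 3963 TPM in the IgG libraries, the upper value being the highest of the series, against 512 to 1385 TPM in bulk tumors. The anti-PD1 libraries spread from 888 to 2659 TPM and overlapped the IgG range. Anti-PD1 is an antibody that blocks the PD-1 receptor of T cells, and IgG served as its control. Both IgG libraries were above all 6 bulk tumor libraries for 30 of the 39 genes. The share over all genes was not counted, so nothing particular to the 39 can be read from this. Isg15 stood at 123 and 301 TPM in the IgG libraries and at 38.2, 123 and 182 TPM in the anti-PD1 libraries, Ifi27l2a at 319 and 399.9 and 144, 239.8 and 325 TPM, and Bst2 at 287 and 291 and 101, 179 and 196 TPM. These libraries also held far more leukocyte marker RNA, 6072 to 9682 TPM in sum over 14 markers against 384 to 845 TPM in bulk tumors, and less melanocyte marker RNA, as given above. The 2 sets cannot be compared as treatments, since sample type, label and any difference in preparation cannot be told apart.

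Between anti-PD1 and IgG no gene was called by limma (0% of 13418 genes). An unadjusted p below 0.05 by limma was found for 2 of the 39, Bst2 and Uba7, and for 964 of all 13418 genes. All 39 lay below 0 with a median log2 fold change of -0.82, against -0.04 over all genes. For 6 genes (Rsad2, Uba7, Bst2, Ifih1, Ifi35 and Adar) all anti-PD1 libraries lay below both IgG libraries, and for 15.8% of all genes. Rsad2 had the largest difference, with 70.4 and 195 TPM in IgG and 8.34, 45.4 and 64.8 TPM in anti-PD1 libraries (-1.95 ± 0.83, 95% interval -3.92 to 0.02, adjusted p = 0.61). Uba7 stood at 54.1 and 81.3 and 20.97, 36.6 and 47.03 TPM (-0.98 ± 0.37, adjusted p = 0.61), and Bst2 had -0.92 ± 0.30 (adjusted p = 0.61). Among the least different was Ifi44, at 1.3 and 4.02 and 0.27, 1.3 and 4.25 TPM (-0.45 ± 0.71).

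Anti-PD1 replicate 1 was the lowest of the 5 libraries for all 39 genes, and IgG replicate 2 was the highest for 36 (not for Usp18, Herc6 and Ifi44). Without anti-PD1 replicate 1 the median was -0.38, and without IgG replicate 2 it was -0.49. Anti-PD1 replicate 3 was above IgG replicate 1 for 33 of the 39. The shares of all genes with these orders were not counted, so nothing particular to the 39 can be read from them. Mx1 stood at 34.1 and 52.2 TPM in IgG and 9.44, 22.8 and 47 TPM in anti-PD1 libraries, and Zbp1 at 123 and 285 and 36.4, 141 and 199 TPM, a spread within each group as wide as the gap between them. Ifng stood at 13.1 and 22.6 TPM in IgG and 0.78, 16.2 and 49.5 TPM in anti-PD1. Mitochondrial genes took 21.9% of the TPM in anti-PD1 replicate 1, the highest share of the 23 libraries, and their part in its low levels was not tested.

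**Figure D5:**
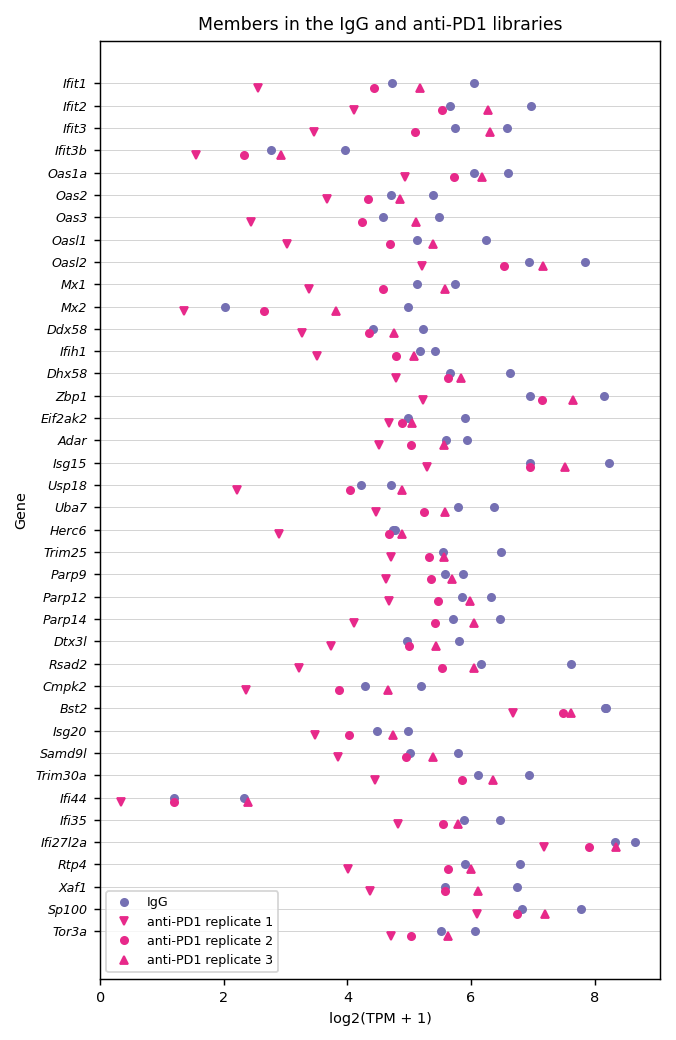
Level of each of the 39 genes, as log2(TPM + 1), in the 2 IgG libraries (violet) and the 3 anti-PD1 libraries (pink, 1 symbol per replicate). Anti-PD1 replicate 1 is the lowest point in every row, replicate 2 lies below both IgG points for 34 of the 39 genes, and replicate 3 lies between them for 30. The shares over all genes were not counted.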

How the data were processed

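RNA-seq reads (75 bases, single-end, 23 to 31 M per library per the labels) had been trimmed by the authors with cutadapt 2.3, aligned with STAR 2.7.0d to mm10 with Ensembl 84 annotation, and quantified with RSEM 1.3.1. The authors deposited TPM (transcript levels scaled for gene length and library total) for 47643 genes in 23 libraries. TPM keeps no depth, so no counting interval is given. The authors' own comparisons used DESeq2, which needs counts and was not run here.

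Values were tested with limma 3.58.1 in R 4.3.3 on log2(TPM + 1), with 1 mean per group, a mean-variance trend and Benjamini-Hochberg adjustment over all genes whose mean over the libraries of the fit reached 1 TPM. Guides were compared in the 6 libraries of each sample type. Interactions and control sample types were compared in all 18 libraries, and anti-PD1 against IgG in 5. Calls needed an adjusted p under 0.05 together with a change of 1.5-fold or more. Fold changes on this scale understate those of low genes. An exact permutation of 2 against 2 libraries cannot go below p = 0.333, and 3 against 2 not below 0.1, so no such test is given. The scripts were tested on simulated data.

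The members and lists were chosen with earlier results of these data known. All 39 members were counted. Some other genes of the lists are not reported here. Values per library are given for the 2 of each role class with the highest mean TPM, for members called in a comparison (at most 12 by p) and for members whose sg495 value opposed the median, and further members are named from the fixed list by role. Alternatives were another pseudocount, other filters, scalings and variance settings, other sets of libraries, a replicate block and leaving out single libraries. Ifit3 and Ifit3b, Dtx3l and Parp9, and families such as OAS and TRIM30 overlap or share sequence, so their split by RSEM is uncertain. Gene positions are GENCODE M21 (GRCm38) and promoters RefSeq GRCm38.p6.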

Additional observations from a re-analysis of the deposited data

Results flagged for a closer look

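By the interaction test of limma, the sg495 effect was not the same for 21 of 38 antiviral genes in sorted tumor cells against cultured cells. The difference of log2 fold changes, sorted minus cultured, was 2.85 for Parp12, 2.09 for Bst2, 3.0 for Oas1a and 1.57 for Dtx3l. It was 3.01 for Sp100, 1.34 for Samd9l, 1.88 for Ifi35 and 3.96 for Zbp1. For Parp14, Rtp4, Trim25 and Ddx58 it was 2.33, 1.99, 1.21 and 1.92. The 12 named are those with the lowest p, and 1.86% of all genes were called higher in this test. Sp100, Zbp1 and Parp14 did not pass the filter in culture and entered through the tumor libraries, as did 4 more of the 21, whereas 14 of the 21 passed it in culture.

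In bulk tumors against cultured cells the same test called 9 of 38 genes, against 1.60% of all genes called higher, and both comparisons share the cultured libraries. The difference, bulk minus cultured, was 1.46 for Samd9l, 2.0 for Parp12, 2.32 for Oas1a and 1.45 for Dtx3l. It was 1.23 for Trim25, 1.40 for Bst2 and 2.01 for Isg20. Parp14, below the filter in culture, had 1.78 and Parp9 had 1.53. Groups of 2 or 3 libraries are too small for a check of single libraries that stand apart.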

How the results depend on the processing

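Called genes were followed singly in the alternative runs for at most 12 per comparison, those with the lowest p. None of these reversed its direction, and the other called genes were not followed singly. Of the 15 medians, that of sg495 against sg492 in bulk tumors (0.13, no gene called) turned to -0.0065 without bulk sg495 replicate 1, and the others kept their sign. With sg495 in sorted cells, 12 genes were called, against 7 with a pseudocount of 0.1, 0 with no expression filter, 7 without the mean-variance trend, 23 in a fit of all 18 libraries and 3 in a fit of the 2 groups alone. For sg495 in bulk tumors (0 called) the fit of all 18 libraries called 18. For cultured sg495 (4 called) a mean of at least 5 TPM left 1. Between guides in sorted cells (5 called) the counts were 0 with no filter, 2 without the trend, 20 in all 18 libraries and 2 in the 2 groups alone, and in cultured cells (4 called) they were 2 with no filter and 1 at a mean of at least 5 TPM. Fits of the 4 control libraries alone called 6 (sorted against cultured, 11 called) and 18 (bulk against sorted, 28 called).

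Leaving out 1 library at a time, where the lone library of a group is assumed to vary like the other groups, gave 0 to 14 calls for sg495 in bulk tumors, 0 to 2 in sorted cells and 0 to 2 in cultured cells. It gave 0 to 2 for sg492 in bulk tumors, 0 in each case between guides in sorted cells and 1 to 2 in cultured cells. The differences of the sg495 effect gave 12 to 21 (sorted minus cultured), 2 to 19 (bulk minus cultured) and 0 to 1 (bulk minus sorted), and the control libraries gave 6 to 13 (sorted against cultured).

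Replicate numbers were shared by the groups, and deviations of same-numbered libraries had correlations between -0.13 and 0.05 in bulk tumors, sorted cells and cultured cells, and 0.085 between IgG and anti-PD1, and the labels name no shared source, so the numbers were not taken as pairs. With the replicate block, 10 genes were called in place of 12 for sg495 in sorted cells, 3 in place of 4 in cultured cells, and 19 in place of 0, all lower, for anti-PD1 against IgG, where the block leaves anti-PD1 replicate 3 without a partner. A crossed pairing of bulk control and sg492 libraries, chosen after seeing the data, called 0. Among counts of calls, 168 values moved by no more than 1.5 times and 46 by more. Medians moved by no more than 1 SD between replicates in 193 values and by more in 20. Among the latter were 0.71 to 1.22 for sg495 and 0.60 to 1.08 for sg492 in bulk tumors. Others were 1.16 to 1.67 for sg495 in sorted cells and -0.58 to -0.16 between guides in cultured cells. For the single genes followed, 742 values stayed on their side of the threshold and 229 lost the call. The cause of these changes was not tested. With 2 libraries in a group, precision rests on an estimate of spread shared across genes.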
